A study of Mus musculus with 40 samples.

Results

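Oxidative phosphorylation runs on 5 protein complexes of the inner mitochondrial membrane, and their subunit genes were followed here through all 10 groups of a study of stressed mouse oligodendrocytes. Members were chosen by symbol: names beginning Nduf, other than the Ndufaf assembly factors, Cox4 to Cox8, Uqcr, Sdha to Sdhd, Atp5, and the mitochondrial mt-Nd, mt-Co, mt-Cyt and mt-Atp genes. A gene also needed at least 10 reads in each of the 40 libraries. Of 109 symbols that matched, 11 were pseudogenes and 10 fell under the read minimum, which left 88 members among the 39056 gene identifiers of the table. Nuclear DNA encodes 78 of them and mitochondrial DNA 10. The nuclear members were 37 genes of complex I, 4 of complex II, 8 of complex III, 12 of complex IV and 17 of complex V, and the mitochondrial ones were 6 of complex I, 1 of complex III and 3 of complex IV. At the minimum, Cox6b2 (lowest library 10 reads) and mt-Nd3 (11 reads) lay just inside and mt-Atp6 (9 reads) just outside. The genes left out for few reads were Ndufa4l2, Cox4i2, Cox6a2, Cox7a1, Cox7b2, Cox8b, Cox8c, mt-Nd4l, mt-Atp6 and mt-Atp8.

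The cells were oligodendrocyte progenitors of wild-type C57BL/6 pups, taken from the cortex at 6 days per the growth protocol, while the sample labels give an age of 6-7 days and whole brain as the tissue. Immunopanning, a purification on antibody-coated plates, was followed by 2 passages and 12-14 h of differentiation before plates were assigned to treatment. Every group shares that background: 4 groups were untreated (1, 8, 24 and 48 h), 4 received interferon-gamma (IFN-gamma, 200 U/ml; 1, 8, 24 and 48 h) and 2 received thapsigargin (200 uM as the labels state it; 1 and 8 h), with 4 libraries of total RNA in each. Thapsigargin blocks the calcium pump of the endoplasmic reticulum, and IFN-gamma is a cytokine of activated T cells. No label says that libraries of a group came from separate cultures or animals, so p-values measure the spread between these samples, part of which may be technical.

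Complexes I and II feed electrons from NADH and succinate to ubiquinone, complex III passes them to cytochrome c, and complex IV hands them to oxygen. Complexes I, III and IV pump protons as they do so, and complex V, the ATP synthase, uses the returning protons to make ATP. Mitochondrial DNA encodes only a few core subunits, so complexes I, III, IV and V are built from the products of both genomes, whereas complex II is wholly nuclear. Oligodendrocytes need much ATP and acetyl groups when they make myelin lipid, and mature ones are known to lean more on glycolysis.

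Libraries held 13165483 to 22651092 reads on genes. Nuclear members took 0.792 to 1.31% of these reads and mitochondrial members 0.644 to 1.07%. No 2 replicates were alike within counting noise (the lowest chi-square over genes, divided by its degrees of freedom, was 6.04). In IFN-gamma 1 h replicate 2, 28.2% of reads lay on ribosomal RNA-like genes. Library numbers 1 to 20 and 21 to 40 each hold 2 libraries of every group, replicates 1 and 2 in the lower range and 3 and 4 in the upper, and the labels do not call the ranges batches. Levels of Y-linked genes were low in 0 untreated, 2 thapsigargin and 8 IFN-gamma libraries. The same 10 libraries held 319.5 to 729 CPM of Xist, the RNA of the inactive X chromosome in females, and the other 30 at most 250.4 CPM. The labels give no sex by library. Beyond the fits without these libraries and with Y-linked level as a term, their part in the IFN-gamma results was not tested. Replicates of a group could differ: IFN-gamma 24 h replicate 1 held 6.74 CPM of Y-linked genes and 559 of Xist, and replicate 2 held 310 and 11.1. These 2 libraries were therefore not repeats of 1 cell pool, and for replicates of similar levels the labels do not settle it. Summed levels of 13 oligodendrocyte lineage markers ran from 3340 to 23739 CPM (read counts scaled to a common library size, with TMM factors), against 853 to 1400 for 11 neuron, 242 to 823 for 10 astrocyte, 14.3 to 27.3 for 12 microglial, 3.63 to 21.5 for 9 endothelial and 4.43 to 52.1 for 6 fibroblast markers, and no list had a gene at 0 in all libraries.

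The mitochondrial genes were counted very differently in the gene table and in the second deposited table, which holds estimated counts per isoform. Median counts of mt-Co3, a core subunit of complex IV, were 44 reads in the gene table and 53507 in the isoform table, a ratio of 1216. The ratio was 342 for mt-Co2 (37 against 12646) and 262 for mt-Nd3 (36 against 9428). It was 1037 for mt-Atp6 (24 against 24884), a ratio that bears on complex V, which has no mitochondrial member here. For the other 7 mitochondrial members, mt-Nd1, mt-Nd2, mt-Nd4, mt-Nd5, mt-Nd6, mt-Cytb and mt-Co1, the ratio lay between 1.11 and 2.24. Several near-identical nuclear copies of mitochondrial genes on chromosome 1 held medians of 1 to 38.5 reads in the gene table. What sets the tables apart was not tested, and mt-Nd3, mt-Co2 and mt-Co3 are left out of summed mitochondrial levels. Counts over 10 mitochondrial members use the gene table, these 3 genes included.

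On the scale of CPM per kilobase of exon, averaged over the 40 libraries, the gene table gave 3781 for mt-Co1, 954 for mt-Nd1 and 876 for mt-Cytb. The order among mitochondrial genes depends on the table, since the isoform table holds more counts of mt-Co3 (median 53507) and mt-Atp6 (24884) than of mt-Nd1 (17639.5) or mt-Cytb (20143.5). The highest nuclear members were Atp5a1 (362), Cox6b1 (351), Cox8a (319) and Atp5b (283), the first and last being the alpha and beta subunits of the catalytic head of the ATP synthase. This order depends on the length used, which joins all annotated exons of a gene. It was 4237 bases for Atp5b and 3135 for Atp5a1, whose main transcripts in the isoform table have 1916 and 2471. The lowest nuclear ones were Atp5s (3.59), an ATP synthase coupling factor, and Cox6b2 (2.26), the testis-type form of a complex IV subunit. Summed over the 78 nuclear genes on this per-kilobase scale, untreated cells gave 7138 ± 269 (SD, n = 4 here and for the values that follow) at 1 h, 6959 ± 655 at 8 h, 6635 ± 571 at 24 h and 6453 ± 131 at 48 h. IFN-gamma cells gave 6620 ± 336, 6794 ± 228, 6259 ± 122 and 5993 ± 259 at the same times. Thapsigargin cells gave 6049 ± 276 at 1 h and 5032 ± 240 at 8 h. All 4 libraries at 8 h of thapsigargin, at 4703 to 5228, lay below each of the other 36 libraries, whereas neighbouring untreated groups overlapped. The sum of the 7 well-counted mitochondrial genes did not separate in this way: it was 5557 ± 467 after 8 h of thapsigargin and 6034 ± 596 in untreated cells of 8 h, with overlapping libraries. Thapsigargin at 8 h was the lowest of the 10 groups for 46 of 78 nuclear members, and IFN-gamma at 48 h for 18.

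**Figure D1:**
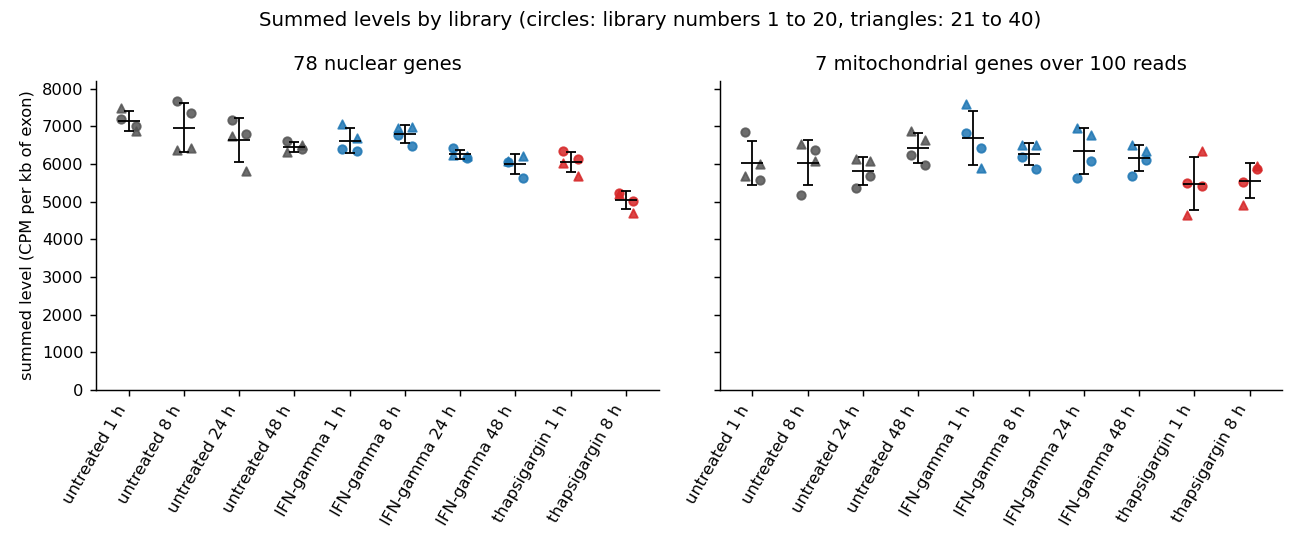
Summed level in CPM per kilobase of exon (y axis) in each library of the 10 groups (x axis), for the 78 nuclear genes on the left and the 7 mitochondrial genes with over 100 reads on the right; circles are library numbers 1 to 20, triangles 21 to 40, and bars give the mean and SD of 4. The nuclear sum was lowest after 8 h of thapsigargin (5032 ± 240), while the mitochondrial sums of treated and untreated cells of 8 h overlap.

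After 8 h of thapsigargin the nuclear respiratory chain genes were mostly lower and the mitochondrial ones mostly not called. Of 78 nuclear members, 55 fell and 2 rose, with a median log2 fold change of -0.36. Over all 15135 genes tested, 60.6% were called (29.6% higher and 31% lower) and the median was -0.01. A call means a Benjamini-Hochberg adjusted p under 0.05 over all tested genes in edgeR's quasi-likelihood test. The fall was at least 2-fold for 10 nuclear members and smaller for 45, and 21 were not called. In 49 of 78 the 4 treated libraries did not overlap the 4 untreated ones, and the share of all genes without overlap is not given here. By complex, 24 of 37 nuclear genes fell in complex I, 3 of 4 in complex II, 6 of 8 in complex III, 9 of 12 in complex IV and 13 of 17 in complex V. Median log2 fold changes were -0.26, -0.37, -0.45, -0.49 and -0.46 in the same order, and the differences between complexes were not tested. Of 10 mitochondrial members 2 fell, with a median of -0.07; 0 were called in the lower library range and 4 in the upper.

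**Figure D2:**
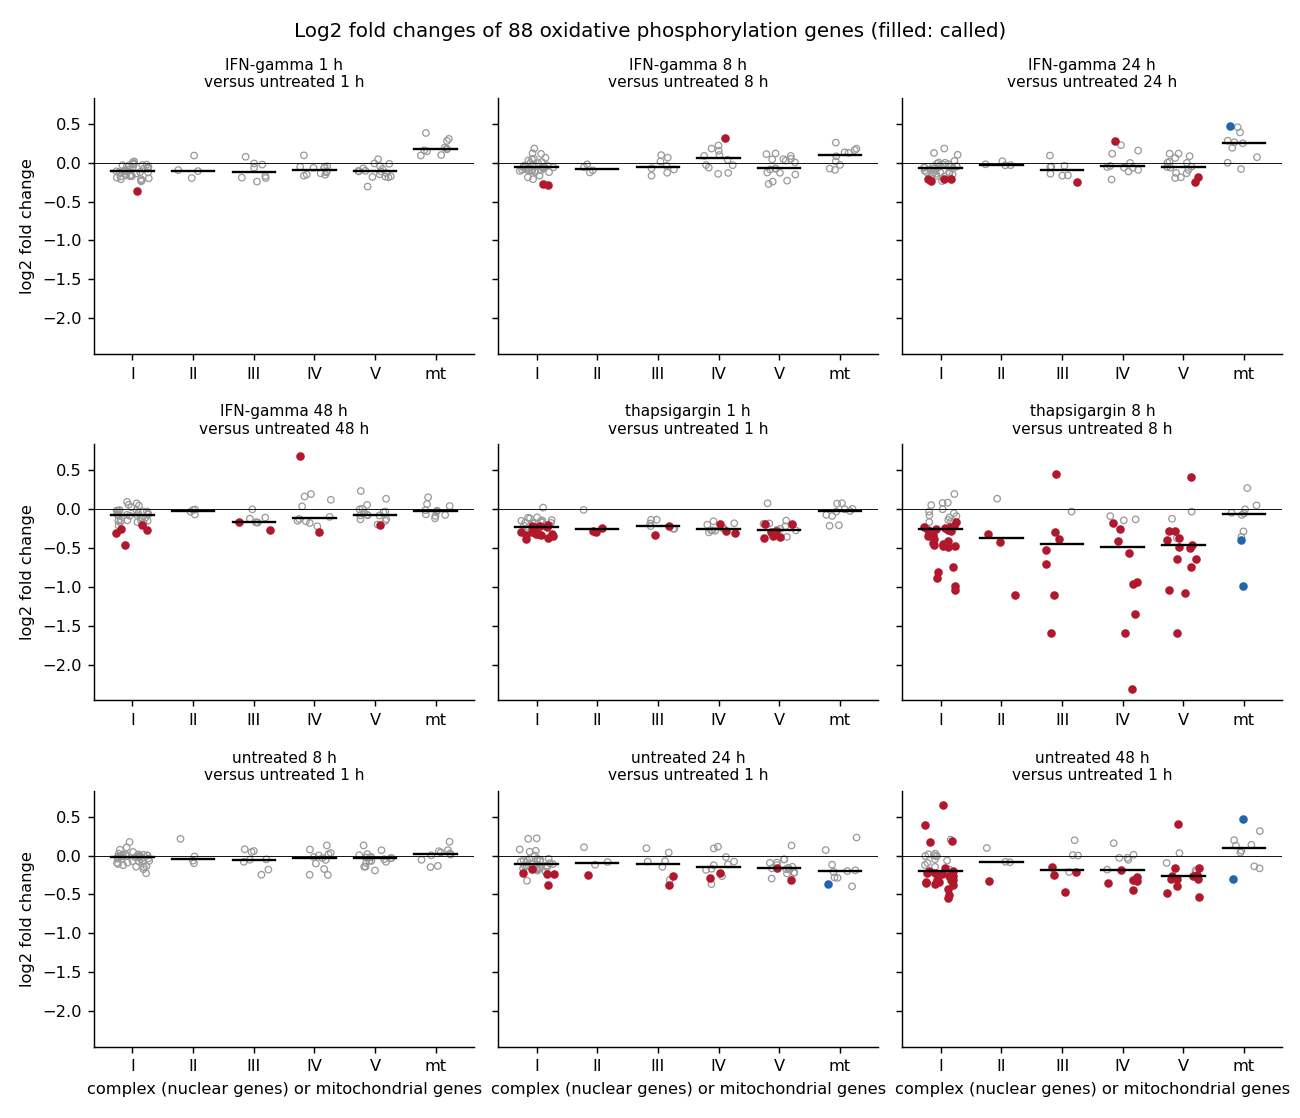
Log2 fold change (y axis) of the 88 genes in 9 comparisons, arranged by complex for nuclear genes and with mitochondrial genes (mt) apart (x axis); filled points were called at an adjusted p under 0.05, open points were not, and bars are medians. After 8 h of thapsigargin 55 nuclear genes fell and the lowest point, Cox6b2, lies at -2.31, while IFN-gamma called between 1 and 10 nuclear genes.

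The promoters of 4 genes that fell by over 2-fold at 8 h of thapsigargin, and of Sdhb, which was not called, are shown to set their sequences side by side. They are the 150 bases before the RefSeq start (build GRCm38.p6), written 5′ to 3′ on the gene's strand, with capitals for matches to an NRF1 (GCGCATGCG), GABP or ETS (CCGGAAGT) or YY1 (AAGATGGC) motif on either strand.
Cox6b1, chr7:30626115-30626264, minus strand: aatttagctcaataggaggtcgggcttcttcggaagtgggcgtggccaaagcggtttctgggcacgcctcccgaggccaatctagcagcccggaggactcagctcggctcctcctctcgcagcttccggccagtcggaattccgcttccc
Uqcrh, chr4:116075071-116075220, minus strand: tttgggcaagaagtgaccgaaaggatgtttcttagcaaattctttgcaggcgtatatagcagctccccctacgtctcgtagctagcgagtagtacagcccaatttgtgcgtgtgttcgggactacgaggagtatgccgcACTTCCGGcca
Atp5k, chr5:108434400-108434549, minus strand: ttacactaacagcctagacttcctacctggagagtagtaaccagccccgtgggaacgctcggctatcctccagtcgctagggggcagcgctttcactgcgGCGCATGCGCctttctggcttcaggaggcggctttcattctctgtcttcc
Cox7a2, chr9:79759854-79760003, minus strand: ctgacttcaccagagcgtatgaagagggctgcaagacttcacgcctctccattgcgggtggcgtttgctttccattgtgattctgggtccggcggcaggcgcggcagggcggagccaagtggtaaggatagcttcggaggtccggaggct
Sdhb, chr4:140961121-140961270, plus strand: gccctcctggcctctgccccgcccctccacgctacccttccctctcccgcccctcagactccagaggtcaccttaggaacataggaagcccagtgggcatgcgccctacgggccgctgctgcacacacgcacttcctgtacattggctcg
NRF1 and GABP are transcription factors long known to act on respiratory chain genes. In the stretches shown, Atp5k holds an NRF1 match read from both strands, overlapping in 1 run 50 bases before the start. Uqcrh holds a GABP or ETS match 11 bases before it, and the other 3 hold none of the 3 motifs in this window.

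In the 250 bases before the start, 66 of 78 nuclear members matched a RefSeq promoter, and 6 of these held the NRF1 letters: Atp5g2, Atp5k, Atp5l, Cox6a1, Ndufa8 and Ndufa11. That is 9.09%, against 2.19% of 17492 coding genes. The GABP or ETS letters stood in 3 (4.55% against 4.26% of all), namely Atp5h, Uqcr11 and Uqcrh, and the YY1 letters in 1, Atp5j (1.52% against 1.77%). GGGCGG, the SP1 core, was found in 37.9% of members and 45.8% of all genes, and CCAAT in 42.4% and 39.5%. The interferon-gamma-activated site TTCNNNGAA stood in 5 members (7.58% against 7.65%). Of the matched members 48 fell after 8 h of thapsigargin and 18 did not. The holders of the NRF1 (6), GABP or ETS (3), YY1 (1) and interferon-gamma-activated (5) letters were all among the 48, and SP1 letters stood in 16 of the 48 and 9 of the 18 and CCAAT in 20 and 8. Of the NRF1 holders, Cox6a1 and Atp5g2 lose their call in the isoform table. Motifs were searched on both strands, these are letter matches only, and their relation to the falls was not tested.

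Complex I takes electrons from NADH, and at 8 h of thapsigargin genes fell among both its core and its accessory subunits. Ndufa4, now known to sit in complex IV despite its name, fell from 192, 185, 158 and 157 CPM in the untreated libraries to 87.8, 87.3, 86.1 and 75.5 CPM. The treated libraries all lay below the untreated ones, and the log2 fold change was -1.04 ± 0.08 (SE; adjusted p = 3.7e-14). Ndufb3, an accessory subunit of the membrane arm, fell from 57.9, 56.4, 47.6 and 48.2 CPM to 27.1, 27.5, 27.4 and 24.3 CPM. Its groups did not overlap, with a log2 fold change of -0.98 ± 0.07. The nuclear core subunits that carry the flavin and iron-sulfur clusters moved little: 4 of 7 fell, with a median of -0.16 and a range from -0.24 to 0.08. Of the other 29 subunits, Ndufa4 left out, 19 fell, with a median of -0.28 and a lowest value of -0.98. This division into core and accessory subunits was made after the values were seen and is a description.

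Complex II, succinate dehydrogenase, is both a respiratory complex and an enzyme of the citric acid cycle, and its 4 genes did not move together. Sdhd, a membrane anchor, fell from 131, 120.3, 103 and 99.9 CPM to 54.6, 51.6, 54.9 and 50.4 CPM at 8 h of thapsigargin. The groups were far apart, with a log2 fold change of -1.10 ± 0.09 (adjusted p = 5.9e-13). Sdhc, the other anchor, fell by 0.42 and Sdha, the flavoprotein, by 0.32 on the log2 scale. Sdhb, the iron-sulfur subunit, measured 163, 157, 132 and 130.3 CPM untreated and 162, 149, 173 and 155 CPM treated. Those groups overlapped and Sdhb was not called (log2 fold change 0.13 ± 0.07, adjusted p = 0.088). Its sign differed between library ranges, -0.06 in the lower and 0.35 in the upper, where Sdhb was called (adjusted p = 0.0020). It was also called higher without untreated replicate 1 or 2 or thapsigargin replicate 2 or 4 (adjusted p from 0.0084 to 0.0341).

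In complex III the small subunits held both its deepest fall and its 1 rise. Uqcrh, the hinge protein beside cytochrome c1, fell from 169.6, 168.7, 147.9 and 149.6 CPM to 56.1, 53.4, 55.4 and 46.2 CPM. Every treated library was under all untreated ones, and the log2 fold change was -1.59 ± 0.09 (adjusted p = 1.0e-16). Uqcr11, another small subunit, fell by 1.10 and Uqcrfs1, the Rieske iron-sulfur protein, by 0.71. Uqcrq, the ubiquinone-binding small subunit, rose from 60.6, 49.9, 54.6 and 54.8 CPM to 79.1, 78.9, 76.5 and 64.8 CPM. The groups did not overlap, with a log2 fold change of 0.45 ± 0.10 (adjusted p = 0.00026). Uqcrc2, a core protein, was not called (-0.03).

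Complex IV, cytochrome c oxidase, held the largest nuclear fall and also several of the steadiest genes. Cox6b1, the ubiquitous form of a subunit on the intermembrane side, fell from 303, 312, 255 and 270.5 CPM to 94.8, 90.9, 103 and 89.0 CPM at 8 h of thapsigargin. The treated libraries were all far below the untreated ones, with a log2 fold change of -1.60 ± 0.10 (adjusted p = 2.1e-15). Its testis-type counterpart Cox6b2 went from 2.35, 3.51, 2.87 and 3.71 CPM to 0.61, 0.59, 0.64 and 0.66 CPM. Those treated values rest on 10 to 12 reads a library, and the log2 fold change was -2.31 ± 0.23. Cox7a2, the widely expressed form of subunit 7a, fell from 155, 152, 136 and 133 CPM to 61.5, 58.3, 54.8 and 52.4 CPM (log2 fold change -1.34 ± 0.10), again without overlap.

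Other complex IV genes changed little. Cox4i1, the common form of a large nuclear subunit, measured 325, 325, 270.4 and 285 CPM untreated and 282, 264, 287 and 258 CPM treated. These groups overlapped and Cox4i1 was not called (-0.14 ± 0.08, adjusted p = 0.10), and neither was Cox7a2l (-0.09), which takes part in joining complexes III and IV. Cox8a (-0.26) and Cox6a1 (-0.17) were called lower, the latter with an adjusted p of 0.039. The Cox6a1 call was lost with DESeq2 and in the isoform table, and without untreated replicate 1, 2 or 4 or thapsigargin replicate 1, 3 or 4 (adjusted p from 0.0785 to 0.32). That of Cox8a was lost without untreated replicate 1, 2 or 3 or thapsigargin replicate 1, 3 or 4 (adjusted p from 0.0558 to 0.325), and in the isoform table (adjusted p = 0.052).

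In complex V, all 8 subunits outside the catalytic head and the c ring, with the coupling factor Atp5s counted apart, fell, with a median of -0.64. Atp5k, subunit e of the dimer interface, fell from 134.1, 133.5, 110.4 and 108.9 CPM to 39.8, 40.4, 39.5 and 42.0 CPM. The groups were far apart, with a log2 fold change of -1.59 ± 0.11 (adjusted p = 5.4e-15). Atp5mpl, a small proteolipid, fell by 1.08. In the head, 3 of 5 subunits fell, with a median of -0.37, and the catalytic Atp5b was not called (-0.12).

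The 3 genes Atp5g1, Atp5g2 and Atp5g3 encode one and the same mature c subunit with different import sequences, and they differed. Atp5g3 fell from 197, 160.1, 169 and 147 CPM to 90.3, 91.2, 76.5 and 70.5 CPM (-1.04 ± 0.12), without overlap. Atp5g2 fell by 0.49, a call lost in the isoform table (-0.36, adjusted p = 0.265), and Atp5g1 was not called (-0.03; 103 to 127 CPM untreated, 102 to 120.2 CPM treated). Atp5s, a coupling factor, rose from 7.96, 7.64, 5.97 and 6.50 CPM to 8.49, 10.2, 9.91 and 8.99 CPM, without overlap. Its log2 fold change was 0.41 ± 0.12 (adjusted p = 0.0026), and the call was lost in the lower library range alone (0.24, adjusted p = 0.231). Atpif1, the inhibitor of the ATP synthase and no member by its symbol, fell by 0.67, from 159 ± 16.9 to 100.3 ± 6.32 CPM (n = 4).

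**Figure D3:**
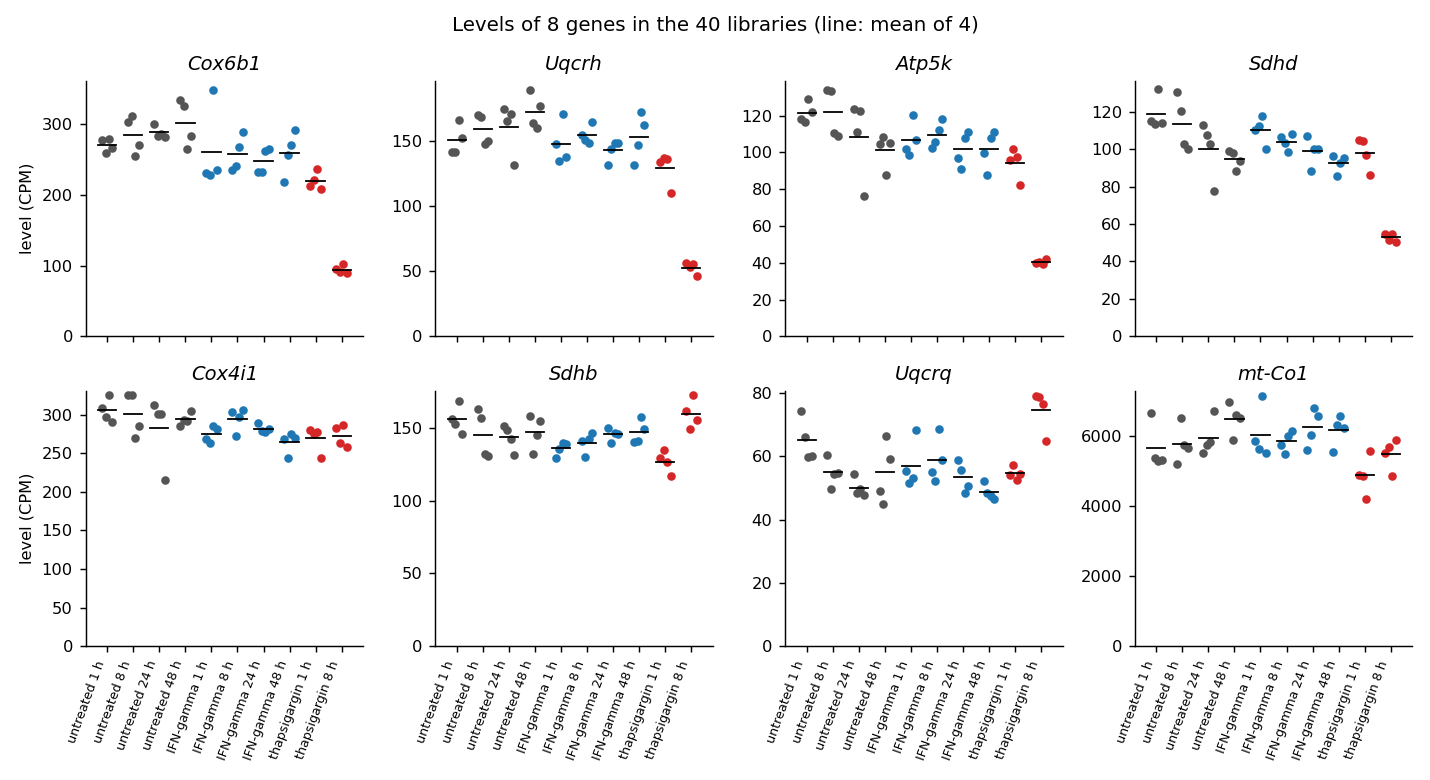
Level in CPM (y axis, from 0) of 8 genes in each of the 40 libraries by group (x axis); lines are means of 4. Cox6b1, Uqcrh, Atp5k and Sdhd are lowest after 8 h of thapsigargin (89.0 to 103 CPM for Cox6b1), Uqcrq is high there (64.8 to 79.1 CPM), and Cox4i1, Sdhb and mt-Co1 overlap between treated and untreated cells of 8 h.

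A gene under the read minimum stood far higher in thapsigargin cells of 8 h than in any other group. Cox6a2, the heart and skeletal muscle form of complex IV subunit 6a, had 274, 196, 147 and 146 reads in those 4 libraries and 0, 0, 0 and 0 in untreated cells of 8 h. In the other 36 libraries it had 0 to 5 reads. With 3 reads over the group as a floor, its level was at least 257-fold higher than in untreated cells, at 10.8 ± 2.06 CPM (n = 4), a bound that covers counting error only. No test is given for it or for Cox7a1, since each passed the filter on low counts through the group where it is high. It shares 70 exon bases (10.3%) with Itgad on the opposite strand, a gene with a median of 0 reads. Cox7a1, the muscle form of subunit 7a, had 26, 15, 30 and 25 reads against 5, 6, 3 and 9 untreated, which do not overlap (1.42 ± 0.485 against 0.345 ± 0.199 CPM, n = 4). Ndufa4l2, a relative of Ndufa4, had 11, 14, 7 and 14 reads against 3, 2, 0 and 2, and was too low to be tested. Their common counterparts went the other way or were flat, Cox7a2 at -1.34, Ndufa4 at -1.04 and Cox6a1 at -0.17.

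**Figure D4:**
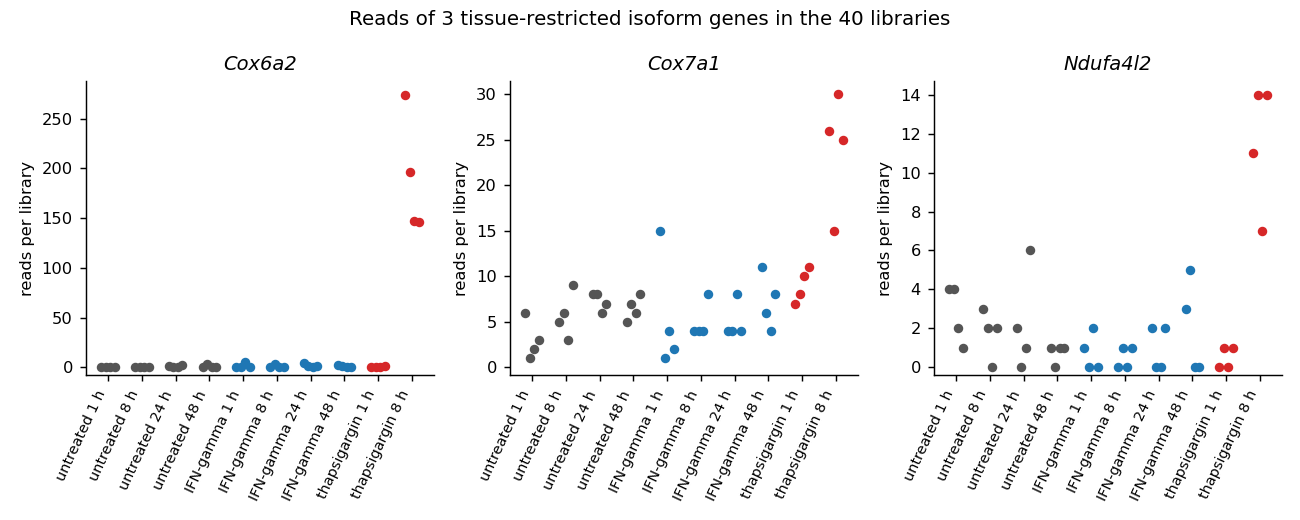
Reads per library (y axis) of 3 genes under the read minimum in the 40 libraries by group (x axis). Cox6a2 holds 146 to 274 reads after 8 h of thapsigargin and at most 5 elsewhere, and those 4 libraries also hold the most Ndufa4l2 (7 to 14 reads) and, but for 1 IFN-gamma library of 15 reads, the most Cox7a1 (15 to 30 reads).

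Most mitochondrial messages were not called at 8 h of thapsigargin, and no test set them against the nuclear ones. The most abundant, mt-Co1, the catalytic core of complex IV, measured 5177, 6494, 5723 and 5655 CPM untreated and 5495, 5675, 4841 and 5872 CPM treated. The groups overlapped and mt-Co1 was not called (-0.07 ± 0.09), nor was mt-Cytb of complex III (0.00 ± 0.14). mt-Nd1, a complex I core subunit, went from 749, 929, 1090.3 and 941 CPM to 685, 761, 623 and 753 CPM. Only the lowest untreated library lay among the treated ones, with a log2 fold change of -0.39 ± 0.11 (adjusted p = 0.0029), and the call was lost in the lower library range alone (-0.23, adjusted p = 0.152).

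mt-Nd3 fell by 0.98 in the gene table, on few reads, and by 0.50 in the isoform table (adjusted p = 1.8e-05). In the isoform table, with all 13 mitochondrial messages, 3 fell and 0 rose after 8 h of thapsigargin, the third being mt-Co3 (-0.22, adjusted p = 0.015; -0.05 and not called in the gene table), and the median was -0.16. mt-Co2 was called in neither table (0.27 in the gene table, -0.12 in the isoform table). All mitochondrial messages together took 1.26 ± 0.11% of estimated counts there, against 1.52 ± 0.12% in untreated cells of 8 h (n = 4). In bulk RNA, a fall in RNA per cell and a fall in the number of cells of a type cannot be told apart.

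Members in the length classes under 1000 bases had the lower median fold changes at 8 h of thapsigargin. Among the 78 nuclear members, 4 of which have a non-coding dominant transcript, Spearman's rho between log2 fold change and the length of the dominant transcript was 0.36, against 0.13 over 12858 coding genes, as a description across genes that share the same libraries. With coding length, in the 74 members whose dominant transcript is coding, rho was 0.48, against 0.10 over all coding genes. Transcripts under 600 bases had a median of -0.41 in 28 members and -0.38 in all coding genes of that length. Between 600 and 1000 bases the medians were -0.44 (26 members) and -0.21, and between 1000 and 2000 bases -0.14 (19 members) and -0.09. Of the 5 members of 2000 bases or more 4 fell, when 31.4% of all coding genes of that length did. The median of these members was -0.32, against 0.02 for all coding genes of that length. Uqcrq, which rose, lies in the shortest class, and Sdhd, which fell by over 2-fold, in the class from 1000 bases. What part RNA length or its recovery has in the falls was not tested.

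**Figure D5:**
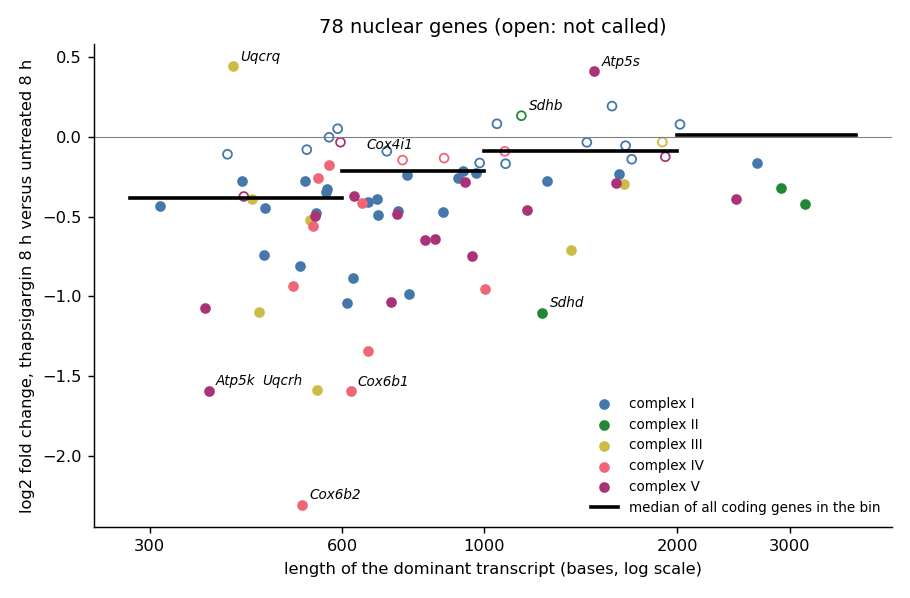
Log2 fold change after 8 h of thapsigargin (y axis) against the length of the dominant transcript (x axis, log scale) for 78 nuclear genes, coloured by complex; open points were not called, and black lines are the medians of all coding genes in the same length class. Short transcripts lie lower both among members (-0.41 under 600 bases) and among all coding genes (-0.38).

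Other markers moved along with these falls. The summed lineage markers were 3340 to 4258 CPM after 8 h of thapsigargin against 8243 to 10319 CPM in untreated cells, and 7 of 13 fell, when 31% of all genes did. Astrocyte markers summed to 242 to 285 CPM against 451 to 547 CPM, and 4 of 10 fell. Neuron markers summed to 1053 to 1144 against 1145 to 1279 CPM, with 5 of 8 tested higher and 1 lower (29.6% of all genes were higher), and microglial markers to 14.3 to 15.7 against 18.6 to 23.7 CPM. The part of these shifts in the result was not tested. The nuclear count called was 60 in the lower library range, with 59 lower, and 37 in the upper, with 32 lower. The medians were -0.46 and -0.22. The shares of all genes given for 8 h are from all 40 libraries, not from these ranges. In the isoform table the count was 54, and gene and isoform fold changes of Cox6b1 (-1.60 and -1.60), Uqcrh (-1.59 and -1.61) and Atp5k (-1.59 and -1.60) were nearly equal.

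At 1 h of thapsigargin the nuclear genes were already slightly lower. Of 78, 32 fell and 0 rose, 76 had a negative fold change, and the median was -0.24. Over all genes 8.79% were called, 6.61% higher and 2.18% lower, with a median of -0.02. The falls were small and came from every complex: 16 of 37 in complex I, 3 of 4 in complex II, 2 of 8 in complex III, 3 of 12 in complex IV and 8 of 17 in complex V. The 3 largest were the accessory subunit Ndufa11 (-0.39 ± 0.09; 42.0, 42.1, 43.8 and 40.4 CPM untreated, 33.4, 35.9, 30.4 and 29.1 treated), the c subunit gene Atp5g1 (-0.37 ± 0.10; 122, 110.0, 127 and 123 against 92.4, 104, 93.1 and 83.5) and Ndufa7 (-0.37 ± 0.08; 104, 95.7, 102 and 96.1 against 74.4, 82.2, 79.1 and 73.6). None of these overlapped between groups. Of 10 mitochondrial members 0 were called by edgeR, 1 at an unadjusted p under 0.05 and 0 by DESeq2.

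The count at 1 h depended on the setting, while its direction did not in those given here. The nuclear median was -0.18 in the lower library range, -0.28 in the upper and -0.17 in the isoform table, where 0 members were called. The count called was 4 and 14 in the ranges alone, 14 without the read filter, 40 by DESeq2, 18 without untreated replicate 1 or thapsigargin replicate 3, 14 without untreated replicate 3, and 12 without thapsigargin replicate 4. The call of Atp5g1 was lost without untreated replicate 3 or thapsigargin replicate 4. The latter library had the lowest Uqcrh (110.2 CPM against 134 to 137) and Cox4i1 (244 against 276 to 281) of its group. Of the 32 genes lower at 1 h and the 55 lower at 8 h, 25 were shared, which is 78.1% of the first and 45.5% of the second, and the untreated controls of the 2 times are different libraries.

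The change from 1 to 8 h was tested as a difference of effects. It was called for 33 nuclear members, 27 more negative and 6 more positive, and for mt-Nd3 (-0.78 ± 0.30, adjusted p = 0.034), a call lost without any one of 9 of the 16 libraries. Over all genes 47.4% were called, 22.7% positive and 24.8% negative. The most negative were Cox6b2 (-2.04), Uqcrh (-1.37), Cox6b1 (-1.30) and Atp5k (-1.23). Uqcrq (0.70 ± 0.14), Sdhb (0.43 ± 0.10), Atp5g1 (0.34 ± 0.14), Ndufs3 (0.30), Ndufa7 (0.29) and Ndufa10 (0.20) were more positive at 8 h. The call of Atp5g1 (adjusted p = 0.046) was lost without any one of 8 libraries. Sdhb had fallen at 1 h (-0.30, adjusted p = 0.0034).

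IFN-gamma changed few nuclear members at any time, between 1 and 10 of 78, and the falls were small. At 1 h, 1 nuclear member fell (1.29% of all genes were called, 1.08% higher and 0.211% lower), with a median of -0.11. It was Ndufs7, a core iron-sulfur subunit of complex I, at 46.8, 48.9, 50.9 and 44.3 CPM untreated and 36.1, 37.0, 34.6 and 41.4 CPM treated. The groups did not overlap (-0.36 ± 0.09, adjusted p = 0.028), but the call was lost without any one of replicates 1, 2 or 3 of either group (adjusted p for Ndufs7 from 0.061 to 0.135). At 8 h, 2 fell and 1 rose (25.2% of all genes, 13.1% higher and 12.1% lower), with a median of -0.06. Cox5a, a nuclear subunit of complex IV, had 112, 99.2, 92.6 and 82.9 CPM untreated and 136, 119, 122 and 104 CPM treated. Its groups overlapped (0.31 ± 0.10, adjusted p = 0.022), as did those of Ndufs8 (-0.29) and Ndufa11 (-0.27), which fell.

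The calls at 8 h rested on single libraries. That of Cox5a was lost without IFN-gamma replicate 1 or 3 or untreated replicate 4, that of Ndufs8 without untreated replicate 1 or 2 or IFN-gamma replicate 2, and that of Ndufa11 without untreated replicate 1 or 2 or IFN-gamma replicate 1, 2 or 3. The count of 3 fell to 1 without IFN-gamma replicate 2 and to 1 without the 10 libraries of low Y-linked level. The result also differed between library ranges. In the lower range 28 nuclear members were called, all lower, and the median was -0.20. The shares of all genes given for 8 h are from all 40 libraries, not from this range. In the upper range the median was 0.10. The untreated libraries of 8 h held summed nuclear levels of 7351 to 7676 per kilobase in the lower range and 6377 to 6430 in the upper, while IFN-gamma libraries held 6482 to 6768 and 6948 to 6980. Marker sums differed without overlap at 8 h: lineage markers were 5830 to 6611 CPM with IFN-gamma against 8243 to 10319 CPM, astrocyte markers 585 to 636 against 451 to 547 CPM and endothelial markers 17.5 to 18.8 against 7.14 to 9.92 CPM. At 24 h they were 6983 to 9005 against 10515 to 14804, 641 to 687 against 454 to 518, and 12.98 to 14.6 against 6.32 to 8.44 CPM. Their part in the results at these times was not tested.

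At 24 h of IFN-gamma, 7 of 78 nuclear members fell and 1 rose (23.1% of all genes, 12.6% higher and 10.5% lower), with a median of -0.06. Calls either way covered 10.3% of these members, a smaller share than of all genes. The share of members that fell was near that of all genes. The count of 8 was 1 in the upper library range, 1 in the isoform table and 3 without the read filter, and the median was -0.15 in the lower range and 0.00 in the upper. Among the falls were Uqcrc2 (-0.25), Atp5a1 (-0.24), Ndufb9 (-0.23), Ndufb8 and Ndufs1 (each -0.21) and Atp5b (-0.18). These include both large proteins of the ATP synthase head. Uqcrc2, a core protein of complex III, had 187, 174, 188 and 167 CPM untreated and 149, 153, 153 and 148 treated, without overlap. Cox5a rose again (0.28, adjusted p = 0.0496), a call lost without IFN-gamma replicate 1 or 2 or untreated replicate 3 or 4 (Cox5a adjusted p from 0.072 to 0.196). That of Ndufb9 was lost without untreated replicate 4 or IFN-gamma replicate 3. Without the 10 libraries of low Y-linked level, which leaves 2 IFN-gamma libraries of 24 h, 0 members were called. mt-Nd4 rose (0.47 ± 0.15, adjusted p = 0.024), from 102, 123, 141 and 93.4 CPM to 134, 171, 161 and 169 CPM. Its groups overlapped, and mt-Nd4 was not called in the isoform table (0.36, adjusted p = 0.134), nor without untreated replicate 1 or 4 or IFN-gamma replicate 2 or 4 (adjusted p from 0.06 to 0.105).

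At 48 h of IFN-gamma, 9 nuclear members fell and 1 rose (36.8% of all genes, 16.9% higher and 19.9% lower), with a median of -0.08. The count of 10 was 3 with the 2 groups fitted alone, 16 in the lower library range and 8 without the libraries of low Y-linked level, and the median was -0.11 in the lower range and -0.01 in the upper. Ndufv3, a small subunit at the NADH-binding end of complex I, had 89.6, 68.8, 83.03 and 89.9 CPM untreated and 46.4, 57.2, 70.5 and 66.7 treated. Only the lowest untreated library lay among the treated ones (-0.46 ± 0.11, adjusted p = 0.0010). Cox6a1, the common form of the subunit whose muscle form appeared with thapsigargin, had 202, 181, 203 and 198 CPM untreated and 163, 155, 160.0 and 162 treated. It fell without overlap (-0.29 ± 0.07, adjusted p = 0.0015). Further falls came in Uqcr11 (-0.27), Ndufs1 and Ndufb9 (each -0.26), Ndufb8 (-0.21), Atp5b (-0.20) and Uqcrc2 (-0.17).

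Cox6b2 rose at 48 h of IFN-gamma, from 1.57, 2.71, 1.66 and 2.38 CPM to 2.68, 2.52, 3.98 and 4.38 CPM. The highest untreated library lay above the lower treated ones (0.68 ± 0.19, adjusted p = 0.0056). In the lower library range alone its change was 0.28 (adjusted p = 0.516). No mitochondrial member was called at 1, 8 or 48 h by edgeR, and 1, 0 and 0 had an unadjusted p under 0.05. Lineage markers summed to 7618 to 13144 CPM at 48 h of IFN-gamma against 13613 to 23739 untreated, fibroblast markers to 22.1 to 52.1 against 12.5 to 21.6 and endothelial markers to 9.83 to 12.7 against 3.63 to 8.96, and their part in the result was not tested.

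The IFN-gamma effects at 24 and 48 h were set against that at 8 h. At 24 h, 0 nuclear members differed by edgeR (2 at an unadjusted p under 0.05; 1.34% of all genes, 0.634% positive and 0.707% negative). At 48 h, 2 nuclear members had the more negative effect, among them Cox6a1 (-0.38 ± 0.10, adjusted p = 0.0091; 17% of all genes, 7.2% positive and 9.83% negative). This count was 4 to 9 without any one of 7 of the 16 libraries, with the 9 when replicate 2 of untreated 48 h was dropped. The lower library range alone gave 0.

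The treatments were also compared directly at 8 h. Nuclear members were lower under thapsigargin than under IFN-gamma in 53 cases and higher in 4, Atp5s (0.66), Uqcrq (0.35), Ndufv3 (0.30) and Sdhb (0.19). Over all genes 61.4% were called, 29.9% higher and 31.5% lower. The deepest differences were in Cox6b2 (-2.25), Uqcrh (-1.55) and Cox7a2 (-1.50). Of the 10 mitochondrial members, 3 were lower, mt-Nd3 (-0.91), mt-Nd1 (-0.48) and mt-Nd2. The call of Sdhb was lost without IFN-gamma replicate 2 or thapsigargin replicate 3, and that of Ndufv3 without IFN-gamma replicate 1 or 2 or thapsigargin replicate 3.

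In untreated cells, more nuclear members were lower at the later times, and so were more of all genes. At 24 h the share of members lower was near that of all genes. Against 1 h, 0 of 78 were called at 8 h by edgeR (5 at an unadjusted p under 0.05, 1 by DESeq2; 6.93% of all genes were called, 4.77% higher and 2.16% lower). At 24 h, 12 fell and 0 rose (28.3% of all genes, 13.9% higher and 14.4% lower), with a median of -0.13. The largest were Uqcrq and Ndufab1 (each -0.38), the latter the mitochondrial acyl carrier protein, and Atp5d (-0.32), the delta subunit of the ATP synthase head. This count was 0 when replicate 1 of 1 h was dropped, 2 to 4 when replicate 2 or 3 of 1 h or replicate 2, 3 or 4 of 24 h was, and 17 when replicate 1 of 24 h was. The library ranges gave 1 (lower) and 15 (upper).

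At 48 h untreated, 42 nuclear members fell and 5 rose (62.3% of all genes, 31.9% higher and 30.4% lower), with a median of -0.20. The count of 47 was 31 without untreated 1 h replicate 3 and 22 in the isoform table. By complex, 19 of 37 fell in complex I, 1 of 4 in complex II, 4 of 8 in complex III, 6 of 12 in complex IV and 12 of 17 in complex V. Ndufb6, a membrane-arm subunit, had 60.4, 63.7, 74.8 and 62.4 CPM at 1 h and 42.5, 38.3, 46.6 and 51.7 CPM at 48 h, without overlap (-0.55). Ndufa5 fell by 0.51. Atp5e, the epsilon subunit of the head, fell by 0.54, a call lost when replicate 1 or 2 of 48 h or replicate 3 of 1 h was dropped (Atp5e adjusted p from 0.0592 to 0.170). Ndufv3 rose from 48.9, 50.4, 57.9 and 53.4 CPM at 1 h to 89.6, 68.8, 83.03 and 89.9 CPM at 48 h, without overlap (0.65 ± 0.11, adjusted p = 4.0e-06). Atp5s (0.41), Ndufa1 (0.40) and Ndufs1 (0.17) were among the other rises.

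All 5 head subunits of the ATP synthase were lower at 48 h untreated, with a median of -0.26, and of its 3 c subunit genes Atp5g3 (-0.48) and Atp5g2 (-0.26) fell and Atp5g1 (-0.21) was not called. The call of Atp5g2 was lost without any one library other than untreated 48 h replicate 2. Among the genes that fell most under thapsigargin, Cox6b1 (0.16) and Uqcrh (0.20) were not called here, whereas Sdhd (-0.33), Cox7a2 (-0.31), Atp5k (-0.26) and Ndufa4 (-0.22) fell. mt-Nd4 rose by 0.47 ± 0.15 and mt-Nd1 fell by 0.30, while mt-Nd1 fell by 0.37 at 24 h. The rise of mt-Nd4 was 0.09 in the lower library range (adjusted p = 0.616) and lost its call without untreated 48 h replicate 3 (adjusted p = 0.0709). The call of mt-Nd1 at 48 h was lost without replicate 1 or 4 of 1 h or replicate 1 or 2 of 48 h, and at 24 h without replicate 1 of 1 h or replicate 1 or 4 of 24 h. In the isoform table mt-Nd4 (0.40), mt-Nd6 (0.46) and mt-Co1 (0.24) rose and mt-Nd3 (-0.30) fell. Lineage markers summed to 7831 to 8385 CPM at 1 h and 13613 to 23739 CPM at 48 h, and astrocyte markers to 438 to 500.2 and 629 to 823 CPM. Their part in the result was not tested.

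Genes that build or serve the chain moved in mixed directions at 8 h of thapsigargin, when 29.6% of all genes were higher and 31% lower. Several of the list counts lie near those shares. Of 15 complex I assembly factors 5 rose and 6 fell, for example Foxred1 (0.69) and Ndufaf1 (-0.73), both needed for assembly. Of 21 complex IV assembly factors 7 rose and 5 fell, such as Surf1 (0.78) and Cmc2 (-1.19). Among 77 mitochondrial ribosomal proteins 12 rose and 35 fell, from Mrps18b (1.22) to Mrpl18 (-1.21). Of 12 mitochondrial chaperones and proteases 8 rose and 1 fell, led by Hspa9 (2.29), the matrix Hsp70 of protein import, and Dnaja3 (1.11), its co-chaperone. Among 16 genes of mitochondrial DNA upkeep and transcription 8 rose and 4 fell, from Top1mt (1.12) to Mterf2 (-1.46). Of 17 citric acid cycle genes 5 rose and 7 fell, such as Dld (1.04) and Ogdh (-0.65). Of 7 electron carrier genes Coq10b (0.86) rose and Etfdh (-0.22) fell.

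Under IFN-gamma, more genes of the citric acid cycle list fell than rose: 5 of 17 fell at 8 h, 8 at 24 h and 9 at 48 h, with 0, 0 and 1 higher. Over all genes 12.1, 10.5 and 19.9% were lower at these times. Mdh2, mitochondrial malate dehydrogenase, fell by 0.27 at 8 h and 0.24 at 24 h. Pnpt1, an RNA-degrading enzyme of mitochondria and a known interferon-induced gene, rose by 0.33, 0.98, 0.91 and 0.87 at 1, 8, 24 and 48 h. In untreated cells of 48 h, 61 of 77 mitochondrial ribosomal proteins fell and 2 rose, with 31 and 0 at 24 h, where 30.4% and 14.4% of all genes were lower. Of 12 regulators of respiratory chain genes 8 fell and 1 rose, among them the coactivators Ppargc1b (-1.39) and Pprc1 (-0.79). Cycs, cytochrome c, fell by 0.65 and Cyc1, cytochrome c1, by 0.36. At 1 h of thapsigargin, 9 of the 77 mitochondrial ribosomal proteins fell and 0 rose, when 2.18% of all genes were lower and 6.61% higher. Trmt10c, part of the mitochondrial RNase P, rose by 0.63 at that time.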

How the data were processed

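Bulk RNA-seq of 40 libraries was used. The authors deposited a table of read counts per gene and a table of estimated counts per isoform. Per the submitters' processing notes STAR, featureCounts, kallisto and edgeR were used, with no versions, and the genome build, annotation and strand of counting were not given in the sources used here. Gene symbols came from GENCODE M21, which matched 38872 of 39056 identifiers. Genes passing filterByExpr were tested with edgeR 4.0.16 (R 4.3.3, TMM, 10 group means, quasi-likelihood test, Benjamini-Hochberg adjusted p under 0.05 over 15135 genes). The same fit was also run on data simulated with the sizes and dispersions of these libraries. Fold changes carry a prior count of 0.125. Alternatives used RLE factors, DESeq2 1.42.0, other filters, the isoform table (summed per gene and rounded), library subsets and single libraries left out.

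The members and lists were chosen with earlier results of these data known. Named genes are the 3 largest called nuclear members in each direction and comparison, all mitochondrial messages, the complex II genes, tissue-type isoforms with their counterparts, the c subunit genes, Atp5s and Atpif1, and up to 2 called genes per list and direction. Other members named, and the division into core, head and other subunits, are examples chosen after their values were seen. The fits without the 10 libraries of low Y-linked level (under 30 CPM), and without IFN-gamma 1 h replicate 2, were also chosen after seeing the data. Exons of 28 members overlap another gene, and of these Ndufa2, Ndufb5, Ndufb11 and Atp5j share at least 10% of their exon bases with an expressed gene on the opposite strand, whose reads cannot be told apart without strand. Results for some genes that the rule names are not reported here.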

Additional observations from a re-analysis of the deposited data

Results flagged for a closer look

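In 6 of 170 groups of 4 libraries tested over 15 genes and both summed levels, 1 library lay further from the others than Dixon's 95% limit, where chance alone marks about 1 group in 20. The gap as a share of the group's range was 0.94 for Cox6b1 in IFN-gamma 1 h replicate 3 (348 CPM against 228 to 235), 0.937 for Sdhd in untreated 1 h replicate 3 (132 against 114 to 115) and 0.922 for mt-Co1 in untreated 1 h replicate 1 (6647 against 5268 to 5375). It was 0.879 for Uqcrh and 0.86 for Cox4i1 in thapsigargin 1 h replicate 4, and 0.873 for Cox4i1 in untreated 24 h replicate 4 (215 CPM against 301 to 313).

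Effects that differed between times were tested as differences of log2 fold changes. The IFN-gamma effect at 48 h differed from that at 8 h for 2 nuclear members, among them Cox6a1 (-0.38). The thapsigargin effect at 8 h differed from that at 1 h for 33 nuclear members and 1 mitochondrial member, mt-Nd3 (-0.78). Cox6b2 (-2.04), Uqcrh (-1.37) and Cox6b1 (-1.30) had the more negative effect at 8 h, and Uqcrq (0.70), Sdhb (0.43) and Atp5g1 (0.34) the more positive.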

How the results depend on the processing

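No paired analysis was possible because the labels give the groups no shared replicate numbers; the ranges of library numbers stood in as a block. With that block, nuclear members called were 1 in untreated cells at 8 h and 4 in the difference of IFN-gamma effects at 48 and 8 h, against 0 and 2. That difference gave 4 with RLE factors, 4 with DESeq2, 1 without the read filter, 1 in the isoform table and 1 with only its groups in the fit. DESeq2 called 1 nuclear member in untreated cells at 8 h and 0 mitochondrial ones in the difference of thapsigargin effects.

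Without the read filter, nuclear counts were 0 for IFN-gamma at 1 h, 3 at 24 h, 14 for thapsigargin at 1 h and 2 for untreated cells at 24 h, and the mitochondrial count was 0 in the difference of thapsigargin effects. This setting alone moved the median of all genes by over 0.1, to -0.177 for IFN-gamma at 24 h and -0.108 in its difference from 8 h.

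In the lower 20 library numbers, nuclear counts were 2, 28 and 16 for IFN-gamma at 1, 8 and 48 h, 4 for thapsigargin at 1 h, 1 for untreated cells at 24 h and 0 in the IFN-gamma difference at 48 h. Mitochondrial counts there were 1 for IFN-gamma at 8 h, 0 at 24 h, 0 for thapsigargin at 8 h, 0 for untreated cells at 24 h, 1 for thapsigargin against IFN-gamma and 0 in the thapsigargin difference. In the upper 20, nuclear counts were 0 and 1 for IFN-gamma at 1 and 24 h, 14 and 37 for thapsigargin at 1 and 8 h, 30 for untreated cells at 48 h and 5 in the IFN-gamma difference at 48 h, and mitochondrial counts 0 for IFN-gamma at 24 h, 4 for thapsigargin at 8 h and 2 in its difference.

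In the isoform table, nuclear counts were 0, 1 and 1 for IFN-gamma at 1, 8 and 24 h, 0 for thapsigargin at 1 h, and 1 and 22 for untreated cells at 24 and 48 h, and mitochondrial counts 0 for IFN-gamma at 24 h and 4 for untreated cells at 48 h. Without the 10 libraries of low Y-linked level, nuclear counts were 0, 1 and 0 for IFN-gamma at 1, 8 and 24 h and 0 in its difference at 48 h, and mitochondrial counts 0 for IFN-gamma at 24 h and 0 in the thapsigargin difference. Fitting the compared groups alone, IFN-gamma gave 6 nuclear members at 8 h and 3 at 48 h. Unless stated, the cause of these shifts was not tested. The subsets hold fewer samples, and the shares of all genes given in the text are from the fit of all 40 libraries.

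Leaving out 1 library at a time, nuclear counts ranged from 0 to 1 for IFN-gamma at 1 h, 1 to 4 at 8 h, 6 to 8 at 24 h and 7 to 11 at 48 h, 12 to 29 and 51 to 57 for thapsigargin at 1 and 8 h, 0 to 1, 0 to 17 and 31 to 40 for untreated cells at 8, 24 and 48 h, 49 to 58 for thapsigargin against IFN-gamma, 2 to 9 in the IFN-gamma difference at 48 h and 29 to 31 in the thapsigargin difference. Mitochondrial counts ranged from 0 to 2 for IFN-gamma and for untreated cells at 24 h, 1 to 3 for untreated cells at 48 h, 2 to 3 for thapsigargin against IFN-gamma and 0 to 2 in the thapsigargin difference. Among values of single genes and levels, 7242 were counted as the same, a class that holds values called in neither fit whatever their sign. A call was lost for 273 and gained for 93. When not divided by exon length 4 levels moved, and 0 called values changed sign. Counts of 10 to 12 reads limit Cox6b2 after thapsigargin, and the few reads of mt-Nd3, mt-Co2 and mt-Co3 in the gene table limit those genes.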
